A study of Mus musculus with 6 samples.

Results

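Cytosolic ribosomal protein genes were followed across 6 bulk RNA-seq libraries of mouse AE9a leukemia cells. Members were the rows whose gene name is Rpl or Rps followed by a number, with an optional p before it and an optional a, x, l or y after it, together with Rpsa. This name pattern takes no measured value into account. It gave 83 of 53618 named rows, 32 of the small subunit and 51 of the large subunit. GENCODE vM21 annotates 80 of them as protein coding and 3 (Rps4l, Rpl6l and Rpl32l) as pseudogenes. A filter on low values (10 normalized counts or more in at least 3 libraries) passed 79 members, and Rpl10l, Rpl39l, Rpl3l and Rpl32l did not pass it.

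The cells carried 1 floxed Usp18 allele (Usp18+/f) and a transgenic Cre that tamoxifen activates, and both groups shared this genotype, the AE9a oncogene and the GFP marker. AE9a, a truncated AML1-ETO fusion, was introduced with GFP by retrovirus into fetal liver cells, and the leukemia was passed on by transplantation into sub-lethally irradiated C57BL/6 mice of both sexes, aged 8 to 12 weeks. The Cre is not specific to a cell type, and the transplanted cells carried both it and the floxed allele. Recipients were injected with oil (Usp18+/f, 3 mice) or with tamoxifen in corn oil (Usp18+/Δ, 3 mice), and GFP+Lin-c-Kit+ splenocytes were sorted 3 days after the first injection, with 1 library per mouse. The comparison asks what the loss of 1 Usp18 allele does to transcripts of these cells, here the transcripts of the ribosome. No group had wild-type cells or cells without Cre that were given tamoxifen, so the drug and the deletion cannot be told apart.

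The ribosome translates every cellular mRNA. Its small (40S) subunit reads the message and its large (60S) subunit joins the amino acids, and most proteins of either subunit are present once per ribosome. Ribosomal protein mRNAs are short and abundant, and most begin with a 5′ terminal oligopyrimidine tract (a C followed by further C and T bases), through which mTOR and the RNA-binding protein Larp1 set their translation together. Several free ribosomal proteins, above all Rpl5 and Rpl11, bind Mdm2 and thereby stabilize p53, and inherited loss of 1 copy of some members causes Diamond-Blackfan anemia.

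The libraries held 19172471 to 23785143 reads. Usp18 was not lower in the libraries labelled tamoxifen, although their label gives a deleted allele. It had 217, 214 and 176 normalized counts in oil 1, 2 and 3, and tamoxifen 1, 2 and 3 had 477, 329 and 284 (limma adjusted p = 0.666). These counts are for the whole gene, so exons that the deletion removes cannot be told apart from the rest. Why Usp18 was not lower was not tested, and oil and tamoxifen name labels throughout. The library labelled tamoxifen 1 stood apart. Mitochondrial genes took 0.00923% of its reads against 1.011% to 1.56% in the other 5, and ribosomal RNA rows took 0.513% against 0.133% to 0.219%. Results are therefore given with and without it. The 9 markers of the sorted leukemia cells summed to 28296 to 32901 normalized counts in oil and 22953 to 32082 in tamoxifen. Of these, Kit had 4687 to 10976, Runx1 9996 to 12791, Myb 3097 to 6692, Runx1t1 1532 to 2097, Spi1 1523 to 3428 and Cd34 201 to 1052, whereas Ptprc (CD45) had 0.898 to 8.08, Mpo 0 to 20.2 and Cebpa 0 to 6.06. The 8 erythroid markers summed to 49624 to 69817 in oil and 55029 to 86142 in tamoxifen. Summed markers of other cells were higher in the libraries labelled tamoxifen. The 10 macrophage markers summed to 108 to 263 in oil and 291 to 404 in tamoxifen, and the 12 T and NK markers to 61.7 to 160 and 201 to 663, nearly all of it Nkg7, with 7 of the 12 at 0 in each library. The 8 granulocyte markers summed to 14.4 to 27.0 and 40.01 to 67.7, with 1 at 0 in each library, although the granulocyte marker that passed the filter, Mmp8, had 8.98, 19.3 and 13.0 in oil and 0, 8.08 and 13.6 in tamoxifen. The 9 B and plasma cell markers summed to 33.8 to 66.5 and 77.3 to 233, with 3 at 0. Their part in the results below was not tested. In bulk RNA, fewer cells of a type and less RNA per cell cannot be told apart.

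Sequences at the start of the genes show what the members share at their 5′ ends. RefSeq windows (GRCm38.p6, 250 bases before to 50 bases after the annotated start) were at hand for 61 members. In 13 of them (21.3%) the annotated first base was a C followed by at least 4 further pyrimidines on the gene's strand, against 2.49% of all 27025 genes. A run of 5 or more pyrimidines opening with C was then allowed to begin within 10 bases of the annotated start. Its C had to follow a base other than C or T, unless it was the annotated first base. By this rule 32 members (52.5%) and 23.8% of all genes had one. The letters CCGGAA, searched on both strands of the 300 bases, were in 30 members (49.2%) and in 15.2% of all genes, and they overlapped the pyrimidine run in 2 members. These matches describe letters in a window, and annotated starts can lie some bases from the start in use. The next lines give 30 bases, 10 before the annotated start and 20 from it on, for 6 members whose values are given below, with the longest run by this rule in capitals.
Rps6 (chr4:86857348-86857377, minus strand): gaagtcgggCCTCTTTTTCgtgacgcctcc
Rps27 (chr3:90213629-90213658, minus strand): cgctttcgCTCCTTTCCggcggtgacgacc
Rplp2 (chr7:141447641-141447670, plus strand): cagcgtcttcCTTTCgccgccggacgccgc
Rps12 (chr10:23787190-23787219, minus strand): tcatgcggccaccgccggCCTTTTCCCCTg
Rpl39 (chrX:37085203-37085232, minus strand): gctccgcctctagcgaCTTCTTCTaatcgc
Rps27l (chr9:66946076-66946105, plus strand): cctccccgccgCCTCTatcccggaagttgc
The run was 10 bases long in Rps6 and 9 in Rps27. In Rplp2 it was 5 bases from the annotated start, and the 5 bases directly before it were pyrimidines too. In the inducible paralog Rps27l it was 5 bases and began 1 base after the annotated start. The printed window of Rps27l also opens with the letters cctcccc, upstream of the start, which were not counted by this rule. Rps12 and Rpl39, which were both low in the library labelled tamoxifen 1, had runs of 11 and 8 bases that began 8 and 6 bases downstream of the annotated start. Shorter runs of 5 bases that also met the rule began 4 bases upstream of the start in Rpl39 and 8 bases upstream in Rps27.

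Levels per length differed widely between members. Expressed as normalized counts per kb of transcript in the oil libraries, the 77 protein-coding members that were tested had a median of 32229 and ran from 19.3 to 118597. The highest was Rplp1, a protein of the ribosomal stalk, at 118597 ± 2894 (SD, n = 3). It was followed by Rpl13 at 88252 ± 3182, Rpl8 at 73988 ± 2829 and Rplp0, the stalk base, at 71143 ± 4061, and Rpl8 and Rplp0 did not differ beyond their spread. At the lower end of all tested members stood Rpl24 at 19.3 ± 4.09, Rps10 at 69.8 ± 6.25, the pseudogene Rpl6l at 77.9 ± 12.2 and Rpl13a at 509 ± 48.6. Low protein-coding members lay among other genes, while Rpl6l and Rps4l, annotated as pseudogenes, had no overlap. The 5 lowest protein-coding members (Rpl24, Rps10, Rpl13a, Rpl23a and Rpl35) all had over 50% of their exon bases inside exons of another gene in GENCODE vM21, as did Rps25. These 6 had a median of 880 per kb, whereas 62 members without any overlap had a median of 37494 and a lowest level of 3895 (Rps15a). Levels per kb depend on the transcript chosen for the length, and that of Rps15a had 5179 bases for a coding length of 390. Across the 77 members, Spearman's rho between the overlapping share and the level was -0.51, a description over genes of the same 3 libraries. Overlap did not always go with a low level. Rps25, with 52.2% of its exon bases inside Trappc4 on the other strand, stood at 18744 per kb, and Rpl5, with 46.6% inside Fam69a, at 13435. In Rpl24, Rpl13a and Rps10 the overlap was on the same strand (71.5%, 59.3% and 53.6% of exon bases), where reads of the 2 genes cannot be told apart by strand. For the others it was on the other strand, and the strand setting of the counting is not given in the sources used here. Counts of all these members are therefore uncertain as levels of their mRNA.

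**Figure D1:**
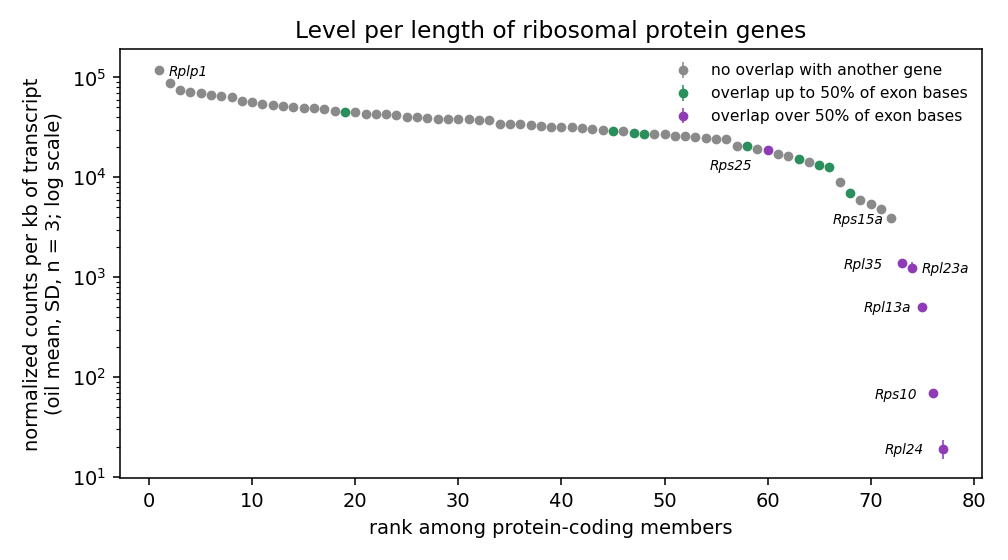
Level of each protein-coding member that was tested, in normalized counts per kb of transcript on a log scale (mean and SD of 3 oil libraries), against its rank from highest to lowest. Colours give the share of exon bases inside another gene. The 5 lowest members all have over 50% of their exon bases inside another gene, and Rps25 is the exception at 18744 per kb.

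Reads of ribosomal proteins can also be shared with copies. Of the 77 members, 18 had at least 80% of their 100-base windows in no transcript of another gene, and 11 had under 20%. The smallest share was in Rps27 (1.63%), of which 98.4% of windows also occur in Rps27rt, and Rps6 (16.4%) and Rps12 (18.4%) shared most of theirs with processed copies. The 291 rows named as ribosomal protein pseudogenes with the ending -ps took 0.0267% to 0.0352% of the reads of a library. The share of unique windows showed almost no relation with the level per kb (Spearman's rho 0.015 over 77 members).

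Between the groups, no ribosomal protein gene passed the test. With all 6 libraries, limma on log2(value + 1) called 0 of the 79 tested members at an adjusted p of 0.05, and the background was the same, with 0% of 12298 genes called. No member had an unadjusted p under 0.05, against 4.47% of all genes. On recovered reads, edgeR called no member and 0% of all genes, and DESeq2 called no member while 0.464% of all genes passed (71 of 15314 with an adjusted p). The median log2 fold change (tamoxifen minus oil) of the members was 0.12, beside -0.017 over all genes tested. With DESeq2 it was 0.096 over 81 members, beside 0.11 over its 24246 genes, so the members did not lie above the other genes there, and over the 12298 genes tested by limma the DESeq2 medians were 0.13 for the 79 members and 0.0043 for all. Without tamoxifen 1 the limma median of the members was 0.0094, beside -0.021 over all genes. In that fit of 5 libraries 0.333% of all genes passed (41 of 12298), none of them a member. An unadjusted p under 0.05 was found for 12.1% of all genes and for 0 of the 79 members. The smallest member p was 0.086, for Rpl27, a large subunit protein.

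The fold changes of the members were small once tamoxifen 1 was left out, in a fit of tamoxifen 2 and 3 against oil. The log2 fold change lay within 0.2 of zero in 77 of 79 members (97.5%), against 68.7% of all genes, and the exceptions, Rpl24 and Rps10, had at most 119 normalized counts in any library. In that fit the 95% interval of the fold change had a median half-width of 0.20 on the log2 scale. In 75 of 79 members the whole interval lay within 0.5 of zero, a count that was not made over all genes. With all 6 libraries the intervals were wider, such as -0.45 to 0.22 in Rps4x, -1.68 to 0.77 in Rpl27 and -2.92 to 0.98 in Rpl39. Rplp0, often used as a reference gene, had 102594, 91729 and 95513 normalized counts in oil and 152287, 92917 and 97643 in tamoxifen. Tamoxifen 2 and 3 fell inside the oil range, and tamoxifen 1 was above it. The log2 fold change of Rplp0 was 0.21 (SE 0.23, 95% interval -0.35 to 0.76) with all libraries and -0.019 (SE 0.11, -0.27 to 0.23) without tamoxifen 1. Rps6, the small subunit protein that S6 kinase phosphorylates downstream of mTOR, had 29416, 27091 and 28336 in oil and 37294, 28327 and 27451 in tamoxifen. Here too only tamoxifen 1 lay outside the oil range, and the log2 fold change was 0.12 (SE 0.17, -0.29 to 0.53), or -0.019 (SE 0.086, -0.21 to 0.17) without that library.

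Few members had groups that did not overlap. All 3 tamoxifen libraries were above all 3 oil libraries in 6 members (7.59%), near the 7.86% of all genes. They included Rplp2, Rpl21, Rpl29, Rpl31 and Rps10. In Rpl31 the values were 31665, 28777 and 30952 in oil and 37326, 32692 and 34469 in tamoxifen, a log2 fold change of 0.19 (SE 0.14, adjusted p = 0.666) that was 0.14 without tamoxifen 1. Rpl29 had 24888, 24276 and 25006 in oil and 44623, 26097 and 25468 in tamoxifen, so tamoxifen 3 was only just above oil 3. The opposite order was seen in 1 member (1.27%), against 9.69% of all genes. Without tamoxifen 1 the counts were 11 higher (13.9%, against 12.6% of all genes) and 2 lower (2.53%, against 16.8%). The higher count was 13 (16.5%, against 11.5%) without oil 1, 10 (12.7%, against 15.8%) without tamoxifen 2 and 14 (17.7%, against 12.4%) without tamoxifen 3. The lower count was 8 (10.1%, against 13.1%) without oil 2, 6 (7.59%, against 21.2%) without tamoxifen 2 and 2 (2.53%, against 14%) without oil 1. It was 0 with TMM scaling (8.48% of all genes), upper-quartile scaling (8.18%) and edgeR (8.46%). The higher count was then 8 with TMM scaling (9.00% of all genes), 7 with upper-quartile scaling (9.16%) and 8 with edgeR (8.95%). The single lower member with all libraries was Rps4x, the X-linked S4 protein of the small subunit, with 38249, 36917 and 38047 in oil and 31840, 36739 and 36156 in tamoxifen (log2 fold change -0.12, SE 0.14, and -0.050, SE 0.087, without tamoxifen 1).

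**Figure D2:**
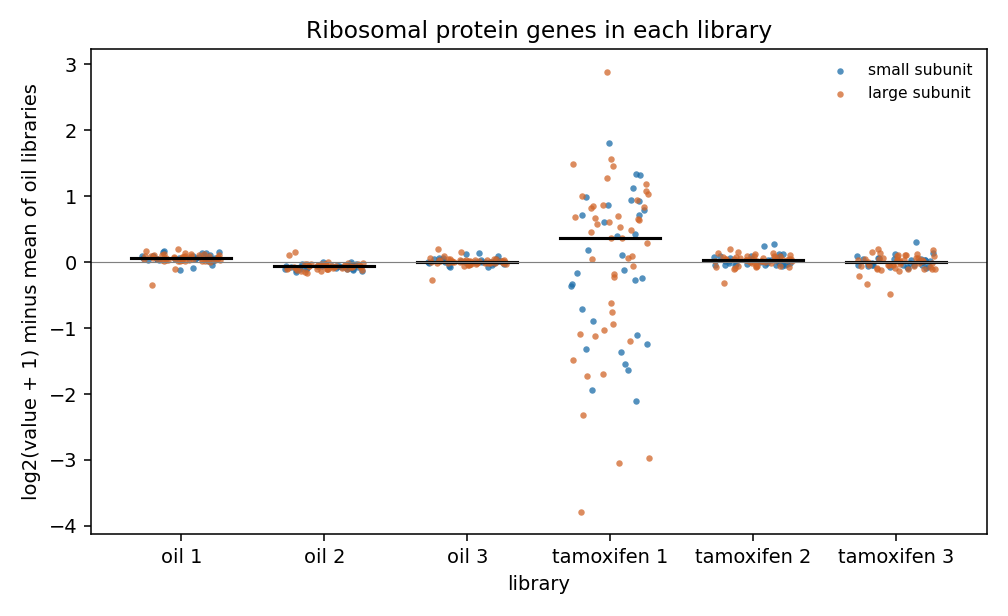
Each point is 1 of 79 tested members in 1 library, as log2(value + 1) minus the mean of the 3 oil libraries, and black lines are library medians. Points keep close to 0 in 5 libraries, whereas tamoxifen 1 spreads from -3.79 to 2.89 with a median of 0.36.

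Outside tamoxifen 1, the levels of the members stayed close between libraries. In the 5 libraries other than tamoxifen 1, oil 1 was the highest for 45 of 79 members and oil 2 the lowest for 52. The median member stood at 0.057, -0.066 and 0.0052 on the log2 scale from the oil mean in oil 1, 2 and 3, and at 0.028 and 0.0018 in tamoxifen 2 and 3. The median of all genes in the 5 libraries lay between -0.037 and 0.0059. The middle 50% of members spanned 0.059, 0.055 and 0.040 in the oil libraries and 0.10 and 0.11 in tamoxifen 2 and 3. Each oil library is part of the mean it is set against, which narrows its span, so these spans cannot be compared between the groups. The SD over the oil libraries had a median of 0.073 over members and 0.12 over all genes, which are on average lower in count.

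The share of reads in ribosomal protein genes was larger in tamoxifen 1 than in any other library. Of the reads of named genes they took 10.5%, 9.52% and 9.90% in oil 1, 2 and 3 and 12.01%, 10.04% and 10.2% in tamoxifen 1, 2 and 3, with 95% Wilson intervals at most 0.0291 percentage points wide, which cover counting error only. The means were 9.96% ± 0.478 (SD, n = 3) and 10.7% ± 1.10. Their difference of 0.780 percentage points was smaller than the SD among tamoxifen libraries, and it was 0.145 without tamoxifen 1. Small subunit members took 4.15%, 3.76% and 3.92% in oil and 4.49%, 3.96% and 4.01% in tamoxifen. Large subunit members took 6.31%, 5.76% and 5.97% in oil and 7.52%, 6.08% and 6.16% in tamoxifen. The ratio of small to large subunit reads was 0.658, 0.653 and 0.657 in oil and 0.597, 0.651 and 0.652 in tamoxifen 1, 2 and 3. Each tamoxifen library was thus below each oil library, tamoxifen 2 and 3 only slightly and tamoxifen 1 by more. This difference was not tested.

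**Figure D3:**
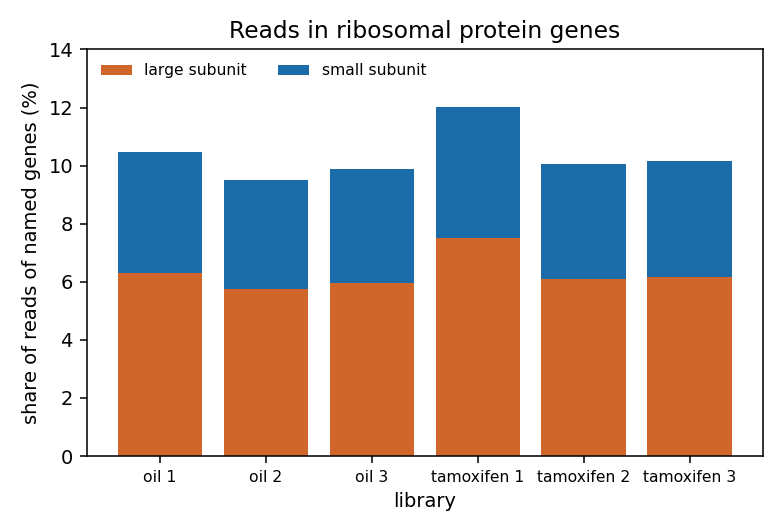
Share of reads of named genes in large and small subunit members, stacked, in each library. Totals run from 9.52% (oil 2) to 12.01% (tamoxifen 1), and the other 4 lie between 9.90% and 10.5%.

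Tamoxifen 1 did not move all ribosomal protein genes in the same direction. It held the highest of the 6 values for 43 members and the lowest for 33, counts that were not made over all genes. Against the median of the other 5 libraries it was more than 1 log2 unit higher in 11 members (13.9%) and more than 1 lower in 18 (22.8%), close to the background of 12.9% and 21.8% of all genes. The median deviation of tamoxifen 1 on this measure was 0.36 over members, against -0.0053 over all genes tested. Over the 79 members, its median Pearson correlation with the other libraries was 0.90 on the log2 scale, whereas each other library reached at least 0.998. The 6 members with the smallest log2 fold changes were Rpl24, Rpl30, Rpl39, Rpl35a, Rps12 and Rps21. Rpl39, a very short protein that lines the exit tunnel of the large subunit, had 10969, 9502 and 9886 normalized counts in oil and 1228, 10191 and 10884 in tamoxifen. Its tamoxifen 2 and 3 values fell inside the oil range, so the log2 fold change of -0.97 (SE 0.81) rested on 1 library and was 0.060 without it. Rpl30, also of the large subunit, had 9008, 8695 and 8608 in oil and 1116, 8889 and 8153 in tamoxifen. For Rpl35a, a Diamond-Blackfan gene, the values were 22928, 19581 and 21522 in oil and 4266, 21988 and 20737 in tamoxifen. Rps12 had 40008, 36679 and 37971 in oil and 8853, 41677 and 38242 in tamoxifen. Rps21 had 17692, 14747 and 15284 in oil and 4131, 15392 and 16635 in tamoxifen. In Rpl30, Rpl35a, Rps12 and Rps21 tamoxifen 1 was the lowest library by a wide gap and the other tamoxifen libraries were near the oil values. Rpl24 was close to the limit of counting, at 9.88, 14.5 and 14.9 in oil and 0, 10.1 and 10.003 in tamoxifen, where 3 reads correspond to 2.69 to 3.83 normalized counts.

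The 6 members with the largest log2 fold changes were Rpl23a, Rps4l, Rplp2, Rpl18, Rps10 and Rpl19. Rpl23a, which sits at the exit of the tunnel, had 799, 633 and 669 normalized counts in oil and 5167, 696 and 679 in tamoxifen. Tlcd1, on the other strand, covers 55.4% of its exon bases. Rplp2, a stalk protein, had 25633, 23715 and 23634 in oil and 72144, 25784 and 25798 in tamoxifen. All 3 tamoxifen libraries exceeded the oil libraries, but tamoxifen 2 and 3 only slightly exceeded oil 1, and the log2 fold change fell from 0.58 (SE 0.41) to 0.085 (SE 0.085) without tamoxifen 1. Rpl18 had 25877, 23475 and 26200 in oil and 70581, 25509 and 25583 in tamoxifen. Rpl19 had 10393, 8804 and 9275 in oil and 26053, 9025 and 9724 in tamoxifen. Both therefore showed 1 high library and 2 within the oil range. Rps10, with a high share of overlap, had 68.3, 58.9 and 58.5 in oil and 119, 74.8 and 76.4 in tamoxifen, and its log2 fold change was 0.50 (SE 0.27), 0.29 without tamoxifen 1 and 0.17 with GC correction, which also took Rpl18 from 0.51 to 0.23 and Rps4l from 0.66 to 0.36. Without tamoxifen 1, Rpl18 was at 0.022 and Rps4l at 0.083. In the 4 members highest per length, Rplp0 included, tamoxifen 1 was the highest library. Rplp1 had 60628, 57741 and 59171 in oil and 75931, 59330 and 60767 in tamoxifen, Rpl13 had 70689, 66016 and 69804 against 109734, 66342 and 63164, and Rpl8 had 64233, 60187 and 64472 against 102157, 63775 and 64477. The next in order, Rpl41 at 69636 ± 4633 per kb, did not differ from Rplp0 beyond their spread and was lowest in tamoxifen 1, with 32470, 28420 and 30403 in oil and 10908, 28926 and 26325 in tamoxifen. Over 77 members, Spearman's rho between the level per kb and the deviation of tamoxifen 1 was 0.15. Of the low members, Rpl13a had 493, 516 and 591 in oil and 261, 568 and 380 in tamoxifen, and Rpl6l 75.5, 72.4 and 55.7 against 109, 73.8 and 64.6.

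Deviations of the members in tamoxifen 1 went with coding length and with base composition. Of 10 members with a coding length under 300 bases, 8 were below the median of the other 5 libraries in tamoxifen 1, with a median deviation of -1.18 on the log2 scale. Of 29 members with 500 bases or more, 21 were above it, with a median deviation of 0.67. The 38 members in between had a median of 0.12. Spearman's rho with the deviation was 0.45 for coding length and 0.37 for the GC content of the transcript over 77 members. In the small subunit (31 members) it was 0.55 for coding length and 0.29 for GC content, whereas in the large subunit (46 members) it was 0.38 and 0.42. Over all 10799 protein-coding genes tested, rho was 0.13 for coding length and 0.72 for GC content. For the length of the whole transcript, rho was 0.20 over the 77 members and -0.073 over all 10799 genes. By subunit it was 0.35 (small) and 0.099 (large). These are descriptions of 1 library, and the points share its depth and preparation. The share of unique windows had a rho of -0.021 with the deviation.

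**Figure D4:**
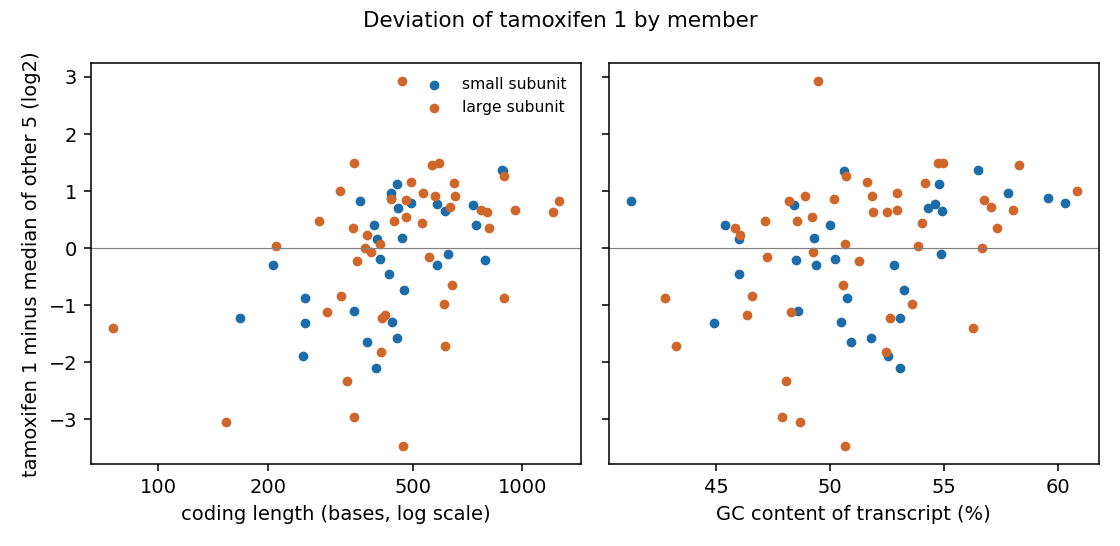
Deviation of tamoxifen 1 from the median of the other 5 libraries (log2) for 77 protein-coding members, against coding length (log scale, left) and GC content of the transcript (right). Members under 300 bases lie mostly below 0 and members of 500 bases or more mostly above it.

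Rps27l was the member of first interest, since it is a p53-inducible paralog of the small subunit protein Rps27. It lies at chromosome 9, 66946086 to 66949516, plus strand (GRCm38, ENSMUSG00000036781.13). The coding sequences of both genes have the same length of 252 bases and are printed with the bases that differ in capitals, to show how far apart reads of the 2 genes are.
Rps27: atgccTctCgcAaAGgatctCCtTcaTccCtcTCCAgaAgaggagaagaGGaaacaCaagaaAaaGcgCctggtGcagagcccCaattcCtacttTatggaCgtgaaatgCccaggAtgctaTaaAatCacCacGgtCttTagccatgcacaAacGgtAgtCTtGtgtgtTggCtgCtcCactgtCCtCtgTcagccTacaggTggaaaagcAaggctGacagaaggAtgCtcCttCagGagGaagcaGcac
Rps27l: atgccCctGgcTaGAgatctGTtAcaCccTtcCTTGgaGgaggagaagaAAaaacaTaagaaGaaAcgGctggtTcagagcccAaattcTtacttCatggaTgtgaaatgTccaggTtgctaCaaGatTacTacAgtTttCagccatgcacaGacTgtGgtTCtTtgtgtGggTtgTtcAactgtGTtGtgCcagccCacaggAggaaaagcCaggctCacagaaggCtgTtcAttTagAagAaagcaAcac
They are identical at 192 of 252 bases (76.2%), and 53 of the 60 differences fall on the third position of a codon. Every 100-base window of Rps27l is found in no other gene's transcript, so its reads can be told from those of Rps27.

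Rps27l had 2793, 2838 and 3272 normalized counts in oil and 1146, 3521 and 2805 in tamoxifen. The groups overlapped: tamoxifen 2 held the highest and tamoxifen 1 the lowest of the 6 values. The means were 2968 ± 265 (SD, n = 3) and 2491 ± 1218, and the log2 fold change was -0.40 (SE 0.41, 95% interval -1.37 to 0.58, limma adjusted p = 0.669). It was -0.13 with GC correction, -0.23 with edgeR and -0.25 with DESeq2. An exact two-sided permutation test over the 6 libraries gave p = 0.8, where the smallest possible is 0.1. Without tamoxifen 1 the sign turned, at 0.086 (SE 0.11, -0.16 to 0.34, adjusted p = 0.796). Its parent Rps27 had 19848, 16523 and 16760 in oil and 9455, 17252 and 18426 in tamoxifen, so tamoxifen 1 was again the lowest (log2 fold change -0.29, SE 0.28, and 0.015 without it). Of the remaining paralogs of restricted expression, 3 were nearly silent or had no reads. Rpl10l and Rpl39l, known from testis, had 0 reads in each library. Rpl3l, known from striated muscle, had 2, 1 and 5 reads in oil and 0, 1 and 5 in tamoxifen. Rpl32l, a processed pseudogene outside that list, had 5, 8 and 8 reads in oil and 4, 7 and 8 in tamoxifen. The fourth, Rps4l, annotated as a transcribed pseudogene, was detected, with 1108, 1195 and 1304 normalized counts in oil and 4210, 1234 and 1309 in tamoxifen. The parent genes were abundant. Rpl3 had 47049, 44922 and 47295 in oil and 71033, 45889 and 43443 in tamoxifen, and Rpl10 had 34807, 32788 and 34235 against 22154, 34716 and 34569.

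Direct p53 targets gave a measure of what the same libraries show for a p53 response, from a list of 28 genes. Of these, 23 were tested, and limma called none with all 6 libraries. Without tamoxifen 1 it called 5 in the upward direction and none downward (0.333% of all genes were called in that fit, in either direction). The 5 were Cdkn1a, Zmat3, Eda2r, Trp53inp1 and Sesn2. Cdkn1a, the cell cycle inhibitor p21, had 603, 487 and 614 normalized counts in oil and 2796, 1754 and 1898 in tamoxifen, and its log2 fold change without tamoxifen 1 was 1.69 (adjusted p = 0.0012). Zmat3 had 927, 674 and 806 in oil and 1738, 1628 and 2039 in tamoxifen (1.19, adjusted p = 0.0081), and Sesn2, an inhibitor of mTOR, had 502, 513 and 477 against 1663, 1031 and 953 (0.99, adjusted p = 0.0028). In these 3 genes, chosen for their small p, the groups did not overlap. Over the 23 tested targets, the groups did not overlap in 8 with tamoxifen higher (7.86% of all genes) and in 1 with tamoxifen lower (9.69%), and the others overlapped, as Rps27l did. The median over the 23 targets was 0.56 with all libraries and 0.35 without tamoxifen 1. The difference between Rps27l and these genes was not tested.

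**Figure D5:**
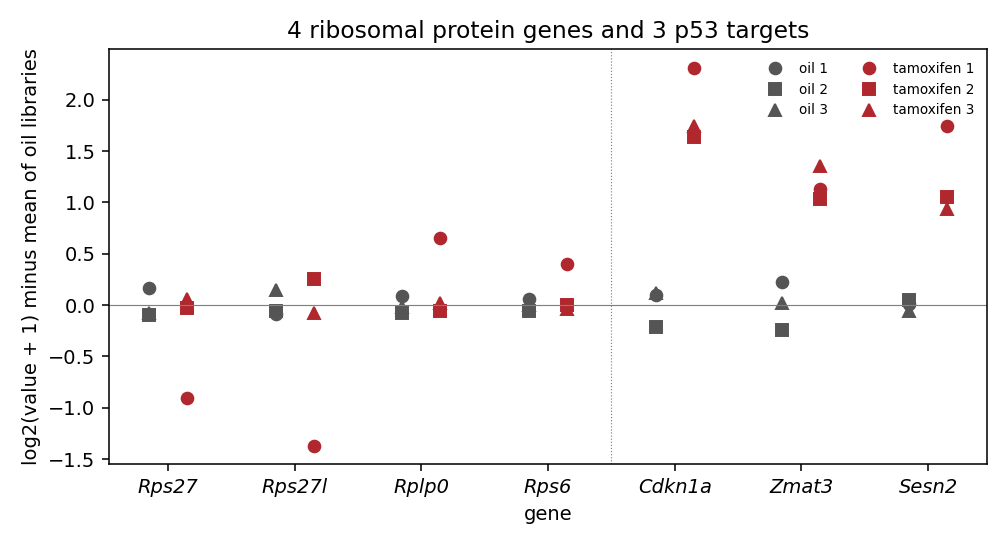
Values of 4 ribosomal protein genes (left of the dotted line) and 3 p53 targets (right) in each library, as log2(value + 1) minus the mean of the 3 oil libraries. All 3 tamoxifen libraries of Cdkn1a, Zmat3 and Sesn2 lie above all oil libraries, whereas Rps27l has tamoxifen 2 above and tamoxifen 1 below the rest.

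Members linked to Mdm2 and p53 (Rpl5, Rpl11, Rpl23, Rpl26, Rps3, Rps7, Rps27 and Rps27l) did not pass in either direction. Rpl5 had 28903, 25641 and 27878 in oil and 14385, 26436 and 24856 in tamoxifen, and its partner in the 5S particle, Rpl11, had 23258, 21088 and 22908 in oil and 44621, 23130 and 22334 in tamoxifen. In tamoxifen 1 the 2 partners thus lay on opposite sides of all other libraries. Without it, their log2 fold changes were -0.098 (SE 0.091, 95% interval -0.30 to 0.11) and 0.021 (SE 0.086, -0.17 to 0.21). Rpl23 stood at 0.14 (SE 0.085, -0.049 to 0.33) without tamoxifen 1 and at -0.28 (SE 0.35, -1.12 to 0.56) with all libraries, so its sign turned on that library. The median over the 8 genes was -0.21 with all libraries and 0.0065 without tamoxifen 1. The 13 members of the Diamond-Blackfan anemia and 5q- list, some of them also in the first list, did not pass either. Rps19, the member most often mutated in that anemia, had 24927, 22391 and 24650 in oil and 45302, 23567 and 24605 in tamoxifen, a log2 fold change of 0.31 (SE 0.27), or 0.0071 (SE 0.088) without tamoxifen 1, and the direction turned with GC correction (-0.0043). Rps14, the 5q- gene, had 33685, 29219 and 31349 against 68046, 30528 and 31801. Without tamoxifen 1, the list ran from -0.098 (Rpl5) to 0.29 (Rps10), with a median of 0.0037.

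Genes that build or regulate ribosomes were read from lists beside the members, and none passed the test in either direction with all 6 libraries or without tamoxifen 1. Among 48 ribosome biogenesis factors the median log2 fold change was 0.25 with all libraries and 0.10 without tamoxifen 1, where 44 of 48 (91.7%) were above zero, against 44.8% of all genes and 55.7% of the members. The groups did not overlap in 14 of them, all with tamoxifen higher (7.86% of all genes). Rrp1b had 993, 961 and 1060 in oil and 1438, 1335 and 1277 in tamoxifen (log2 fold change 0.43, SE 0.14, adjusted p = 0.666), and nucleolin (Ncl) had 39514, 41881 and 47248 against 57567, 54490 and 52004 (0.35, SE 0.15, adjusted p = 0.666). Utp20, of the small subunit processome, stood at 0.39 (SE 0.17), or 0.26 without tamoxifen 1. The 14 tested genes of the RNA polymerase I machinery, which transcribes ribosomal RNA, had a median of 0.071, or 0.040 without tamoxifen 1, with Polr1a at 0.30 (SE 0.16), or 0.19 without it. Larp1, the binder of terminal oligopyrimidine mRNAs, had 5869, 6531 and 6633 in oil and 12450, 7799 and 7683 in tamoxifen, so its groups did not overlap (0.52, SE 0.22, adjusted p = 0.666, and 0.29, adjusted p = 0.194, without tamoxifen 1). The 15 tested regulators of ribosomal protein synthesis, Larp1 included, had a median of 0.085, or 0.0037 without tamoxifen 1. Translation factors whose mRNAs share the terminal tract (16 genes) had a median of -0.015, or -0.0022 without tamoxifen 1, with Eef1g at 0.26 (SE 0.18), or 0.099 without it. Mitochondrial ribosomal proteins, which are imported into a different ribosome, had a median of -0.066 over 77 tested genes, or -0.046 without tamoxifen 1, and Mrps30 had 649, 634 and 653 in oil and 396, 557 and 532 in tamoxifen (log2 fold change -0.40, SE 0.19, and -0.24, SE 0.094, without tamoxifen 1). Ribosomal proteins that the name pattern misses (7 tested, among them Rack1 and Rpl36al) had a median of 0.16, or -0.057 without tamoxifen 1.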

How the data were processed

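RNA-seq was carried out on 6 libraries, grouped by their labels. The authors processed reads with STAR and DESeq2 (mm10, per the submitters' notes), and annotation and strand setting are not given in the sources used here. The deposited values are a signal, read counts divided by 1 size factor per library, so dividing by the value of 1 read recovered whole reads (100% within 0.02 reads). Of 55450 rows, 1832 unnamed ones (0.0400% to 0.0614% of reads) were left out. limma (version 3.58.1, R 4.3.3; lmFit, eBayes with trend) was run on log2(value + 1) for the 12298 genes that reached 10 in 3 or more libraries, two-sided, with Benjamini-Hochberg adjustment over all of them. On this scale changes of low genes are understated. The fit was tested on simulated data. Positions, lengths, exon overlap and 100-base windows came from GENCODE vM21 (GRCm38), and start windows from RefSeq.

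The members and lists were chosen with earlier results of these data known. Values are named for Rps27l, Rplp0, Rps6, the paralogs and parents, the 6 largest and 6 smallest fold changes, the 4 highest and 4 lowest levels, members of the p53 and anemia lists and up to 3 genes per list with the smallest p. Rpl21, Rpl29, Rpl31, Rpl27, Rpl41, Eda2r and Trp53inp1 were named after their values were seen. Values of some genes are not reported here. Samples of a group came from separate mice. Alternatives were other pseudocounts, filters and scalings, edgeR (version 4.0.16) and DESeq2 (version 1.42.0) on recovered reads, GC correction, a replicate block and each library left out. Members left out of the median and proteins added to the share were chosen after seeing the data.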

Additional observations from a re-analysis of the deposited data

How the results depend on the processing

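At 19172471 to 23785143 reads a library, Rpl24 (0 to 16 reads), Rpl3l (0 to 5) and Rpl32l (4 to 8) were near the limit of counting. No setting called a member (0 in each). Same-numbered libraries did not deviate together (correlation of deviations -0.024, 0.061 and -0.15), and with the number as a replicate block Rps27l stayed at -0.40 (adjusted p = 0.731), with 0 members called. When 1 library was left out, the median of the members was 0.0094 to 0.18, non-overlapping members numbered 6 to 14 higher (13 without oil 1, 11, 10 and 14 without tamoxifen 1, 2 and 3) and 1 to 8 lower (2 and 8 without oil 1 and 2, 2 and 6 without tamoxifen 1 and 2), which is 7.59% to 17.7% and 1.27% to 10.1% of members against 10.8% to 15.8% and 13.1% to 21.2% of all genes, and the difference in the share of reads was 0.145 to 1.13 percentage points. The lower count was 0 with TMM scaling, with upper-quartile scaling and with edgeR, where Rps4x overlapped. Rps27l ranged from -0.72 to 0.086 over the libraries left out (adjusted p 0.420 to 0.865 over all alternatives). GC correction moved the median of the members to 0.040. Usp18 ranged from 0.60 to 0.97.

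Without tamoxifen 1 the fold change of 40 of the 79 tested members turned sign, a count that was not made over all genes. The 18 of them among 36 members of the naming rule, beside Rps27l, ranged over the libraries left out from -0.019 to 0.34 (Rplp0), -0.019 to 0.20 (Rps6), -0.47 to 0.015 (Rps27), -0.056 to 0.30 (Rpl3), -0.29 to 0.030 (Rpl10), -1.51 to 0.060 (Rpl39), -1.18 to 0.0037 (Rpl35a), -1.05 to 0.064 (Rps12), -0.99 to 0.013 (Rps21), -0.015 to 0.75 (Rpl19), -0.019 to 1.44 (Rpl23a), -0.088 to 0.31 (Rpl13), -0.49 to 0.14 (Rpl23), -0.0018 to 0.45 (Rpl26), -0.047 to 0.34 (Rps3), -0.55 to 0.049 (Rps26), -0.0096 to 0.57 (Rps14) and -0.62 to 0.064 (Rps29). Rps24 ranged from -0.068 to 0.036 and turned without oil 1, tamoxifen 2 or tamoxifen 3. It was at -0.0073 with all libraries and above 0 with TMM scaling (0.0074), upper-quartile scaling (0.0060) and edgeR (0.0080). With GC correction, with or without the replicate block, Rpl8 was -0.020, Rpl13 -0.075, Rplp1 -0.11, Rps19 -0.0043 and Rps24 0.20, none past the threshold, and the cause was not tested. GC correction also moved by over 1.5 times Rpl19 (0.30), Rplp0 (0.11), Rps4x (-0.031), Rpl5 (-0.014), Rpl23 (-0.094), Rps14 (0.19) and Rpl15 (-0.23). edgeR did so for Rpl23a (1.64), Rpl24 (-0.86), Rpl30 (-0.51), Rpl35a (-0.42), Rpl39 (-0.42), Rps12 (-0.35), Rps21 (-0.38), Rpl23 (-0.15), Rpl15 (-0.36) and Rps29 (-0.24), and a pseudocount of 5 for Rpl24 (-0.78). The median kept its sign, within the spread of library medians, without pseudogenes, without overlapping members and with unique members only, as did the share with the other ribosomal proteins added.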
